A study of Homo sapiens with 6 samples.

Results

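The genes described here are the collagens, laminins, nidogens and the basement membrane proteoglycans perlecan (HSPG2) and agrin (AGRN). They were taken by a rule on gene symbols that uses no measured value, though it was chosen with earlier results of these data known. Of 60 human genes with such a symbol, 35 had a row among the 12558 genes of the authors' deposited table, and the other 25 were not analysed here. The study measured RNA in IGR37, a human melanoma cell line, in which a doxycycline-inducible CTNNB1 transgene had been placed with a piggyBac vector and integrated cells selected with G418. The transgene encodes beta-catenin with an SV40 nuclear localisation signal at its N-terminus. Doxycycline at 20 ng/ml for 24 h switched the transgene on in 3 libraries, and 3 more came from the same engineered line left without it, so the control cells carried the transgene and the drug selection too. Whether the line is 1 clone or a pool, and whether the libraries of a group were separate cultures, is not given in the sources used here.

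Only the authors' edgeR comparison was used: a log2 fold change, an average level in CPM (counts scaled to the size of the library), an F statistic, a p-value and a false discovery rate (FDR) per gene. It holds no value per library, so no value per sample and no replicate SD can be shown. Its header does not name the groups. They are called the numerator and denominator group of the fold change below, and "higher" and "lower" refer to the numerator group. The authors' deposited table lists CTNNB1, the induced gene, as 3.89-fold higher (log2 1.96), at an average of 757 CPM and an edgeR FDR of 1.24e-08. A fold of doxycycline over no doxycycline would have that sign, though nothing states the order, or that these are the groups compared. The CTNNB1 rise by itself does not identify them. An FDR under 0.05 was reached by 50.9% of all genes. Estimated levels of the melanocytic markers described below summed to 7665 CPM in the numerator group and 116 CPM in the denominator group. Whether the groups compared are the libraries with and without doxycycline was not tested. A gene was called when its FDR was under 0.05.

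Collagens are trimers of alpha chains. Fibrillar collagens assemble into the banded fibrils of connective tissue, and fibril-associated collagens (FACITs) decorate those fibrils. Basement membranes are thin sheets in which laminin trimers, each with an alpha, a beta and a gamma chain, form one network and collagen IV another, linked by nidogens and heparan sulfate proteoglycans. Melanocytes sit on such a sheet in the epidermis, and melanoma cells cross it when they invade the dermis.

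Most of these genes were lower. By the authors' deposited table, lower calls numbered 22 of the 35 genes and higher calls 8, while 5 genes were not called (edgeR FDR). Over all genes tested, 26.4% were lower and 24.5% higher, 50.9% in all. Higher calls made up 22.9% of the 35 genes, near the share of all genes. The median log2 fold change of the 35 genes was -1.55, against -0.01 for all genes. Large differences were common: 11 of the 35 were at least 16-fold lower, where 3.63% of all genes were, and 3 were at least 16-fold higher, where 2.93% of all genes were (6.56% in either direction). Among all genes with an average log2 CPM of at least 1, deposited calls covered 51.2%, made up of 26.9% lower and 24.3% higher. These shares are set side by side as a description, since genes of a list are not replicates. The 59 ERCC spike-in RNAs, synthetic transcripts in the same libraries, had a median log2 fold change of 0.57. Centred on it, higher genes made up 17.8% of all called genes, against 48.1% as deposited. Among the called genes of the 35 they made up 25%, against 26.7% as deposited. COL7A1, COL16A1 and LAMB2, none of them called, changed sign with that centring.

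**Figure D1:**
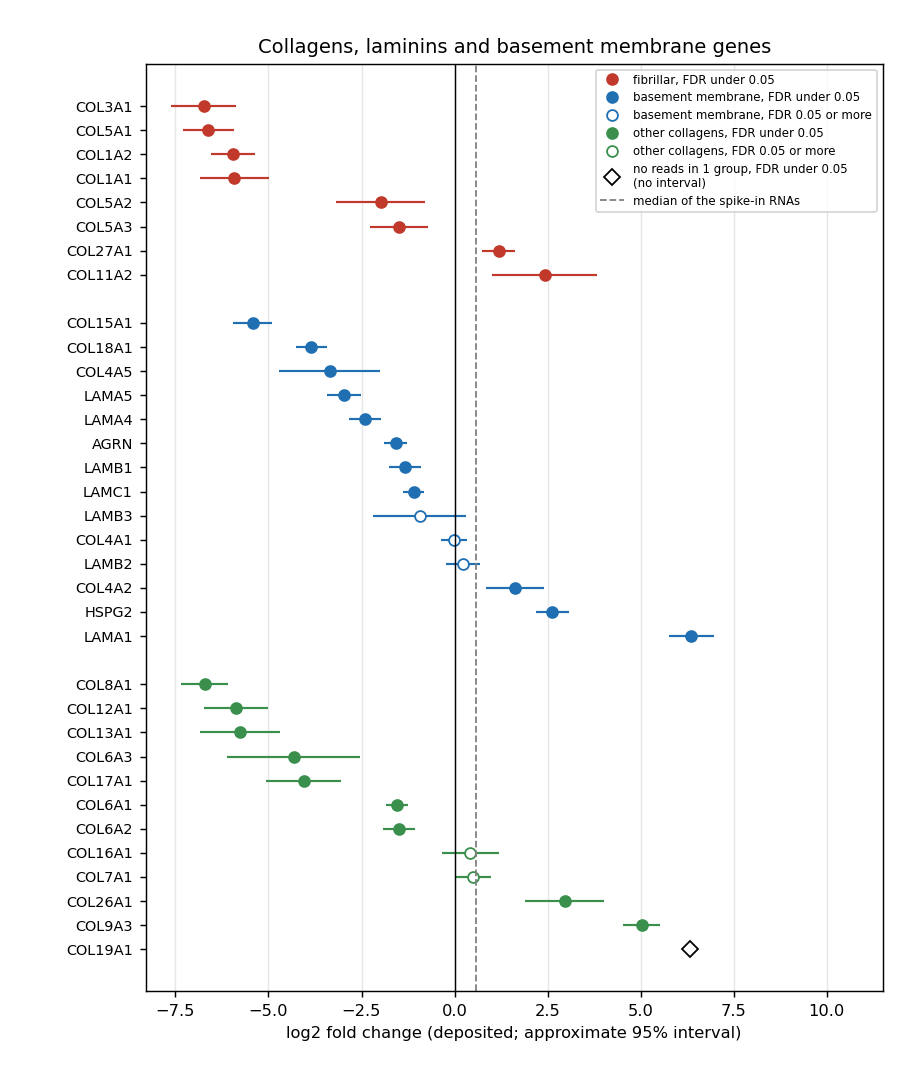
Deposited log2 fold change of 34 of the 35 genes, with the approximate 95% interval from its F statistic, in 3 classes. Filled points have an FDR under 0.05 and the open diamond is COL19A1, called higher with no reads in 1 group; 21 called genes lie left of 0 and 8 right of it, and the dashed line is the spike-in median of 0.57.

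**Figure D2:**
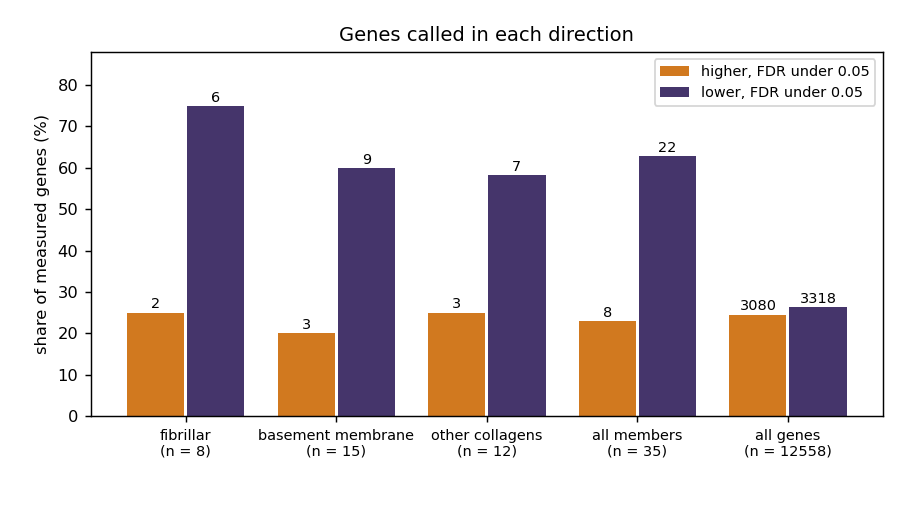
Share of measured genes (y axis, percent) called higher and lower at an FDR under 0.05 in each class, in all 35 genes and in all 12558 genes, with the number of genes above each bar. The bars for lower stand at 75.0%, 60.0% and 58.3% in fibrillar collagens, basement membrane genes and other collagens, against 26.4% in all genes.

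The 8 fibrillar collagens with a row were all called, 6 lower and 2 higher, with a median log2 fold change of -3.95. Over all genes 26.4% were lower and 24.5% higher. The main collagens of skin and tendon were at the bottom. COL3A1, the chain of type III collagen, was 107-fold lower by the authors' deposited table (log2 -6.74, approximate 95% interval -7.62 to -5.87, edgeR FDR 6.52e-09). COL5A1, a chain of type V collagen that nucleates fibrils and limits their width, was 98.0-fold lower there (log2 -6.61, -7.30 to -5.93, FDR 6.56e-10). Both chains of type I collagen shifted by about the same amount. COL1A2 had a log2 fold change of -5.95 (-6.54 to -5.36, edgeR FDR 4.17e-10) and COL1A1 one of -5.91 (-6.85 to -4.97, FDR 5.59e-08) in the authors' deposited table, so their intervals overlap.

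A level in each group can be worked out from a gene's average CPM and its fold, if the average is taken as the mean of both groups. By this estimate COL5A1 stood at 5.16 CPM in the numerator group and 506 CPM in the denominator group. COL1A2 stood at 1.51 and 93.2 CPM, COL1A1 at 0.748 and 45.0 CPM, and COL3A1 at 0.504 and 54.0 CPM, in the numerator and the denominator group. All of these but COL5A1 were thus at under 2 CPM in the numerator group. The other type V chains moved less. COL5A3 was 2.84-fold lower (log2 -1.50, edgeR FDR 0.00326) and COL5A2 3.95-fold lower (log2 -1.98, FDR 0.00844) in the authors' deposited table. The COL5A2 call was lost when the p-value was recomputed from the deposited F with the 4 degrees of freedom that 6 libraries in 2 groups would leave (adjusted p = 0.0637). F itself was not fitted again, so this is not a full test with 4 degrees of freedom.

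Fibrillar chains known mainly from cartilage went the other way. COL27A1 was 2.28-fold higher (log2 1.19, approximate 95% interval 0.75 to 1.63, edgeR FDR 0.00025) in the authors' deposited table. Its estimated level was 35.6 CPM in the numerator group and 15.6 CPM in the denominator group. COL11A2, a chain of type XI collagen, was 5.38-fold higher there (log2 2.43, 1.02 to 3.84, edgeR FDR 0.00681) at an average of 1.46 CPM, and this call too was lost with 4 degrees of freedom (adjusted p = 0.059). Summed over the 8 fibrillar chains, the estimated level was 50.1 CPM in the numerator group and 727 CPM in the denominator group. Each sum rests mostly on 1 gene, COL27A1 with 35.6 CPM in the numerator group and COL5A1 with 506 CPM in the denominator group.

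**Figure D3:**
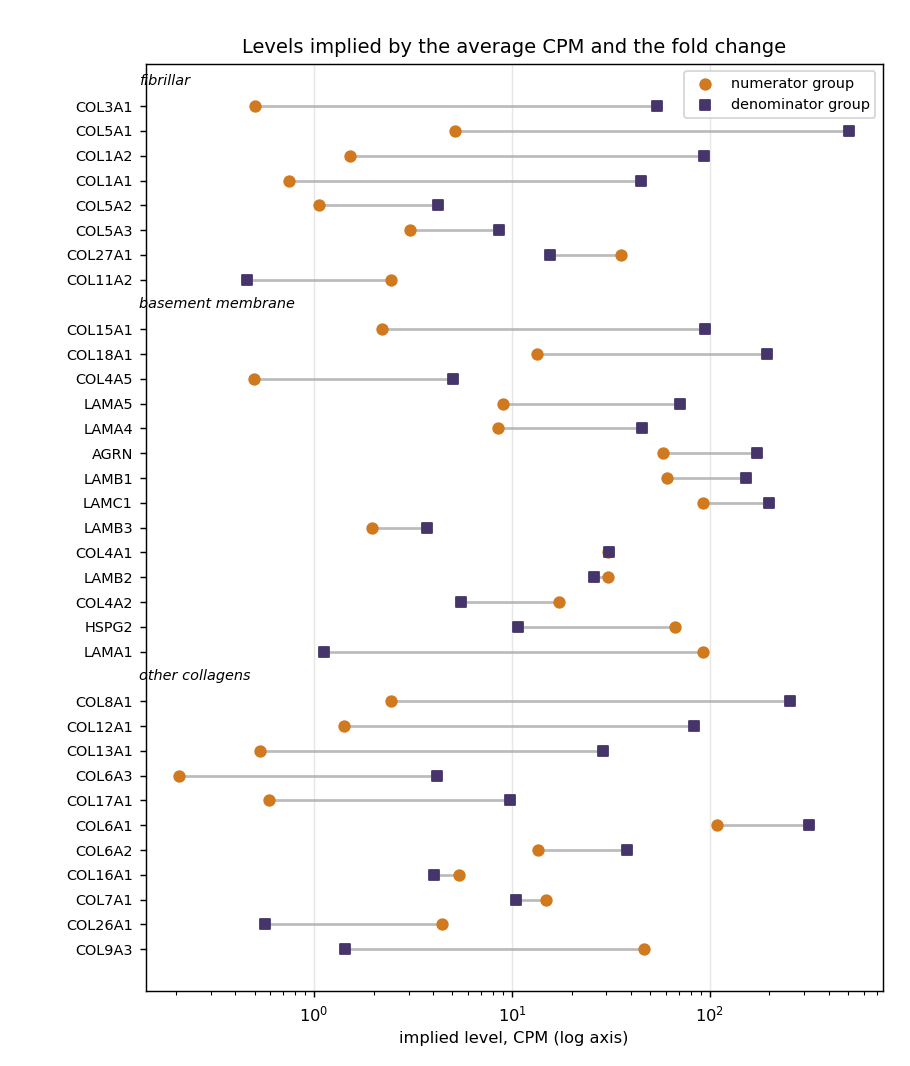
Estimated level (implied level on the axis, CPM, log scale) in the numerator group (orange circles) and the denominator group (purple squares) for 33 genes with reads in both groups, computed from the deposited average CPM and fold. COL5A1 stands at 5.16 and 506 CPM and LAMA1 at 91.8 and 1.12 CPM in the numerator and denominator group, while the COL4A1 points coincide.

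Among basement membrane genes, 15 had a row: 9 were lower, 3 higher and 3 not called, with a median log2 fold change of -1.32. Over all genes 26.4% were lower and 24.5% higher. The nidogens NID1 and NID2 had no row. The laminin alpha chains, which carry the cell-binding domains and set the identity of a laminin, split in direction. LAMA1, the alpha chain of the laminin of early embryonic basement membranes, was 82.1-fold higher by the authors' deposited table (log2 6.36, approximate 95% interval 5.75 to 6.96, edgeR FDR 3.12e-10). Its estimated level was 91.8 CPM in the numerator group and 1.12 CPM in the denominator group. The gene occupies 6941742 to 7117797 of chromosome 18 (hg38, minus strand).

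LAMA5, the alpha chain of most adult epithelial laminins, was 7.88-fold lower by the authors' deposited table (log2 -2.98, -3.43 to -2.52, edgeR FDR 3.67e-08), at an estimated 8.96 CPM in the numerator group and 70.7 CPM in the denominator group. LAMA4, the alpha chain of vessel wall and muscle laminins, was 5.30-fold lower there (log2 -2.41, -2.83 to -1.99, edgeR FDR 1.56e-07), at an estimated 8.52 and 45.2 CPM. LAMA1 was thus the one alpha chain with a row that was higher, and LAMA2 and LAMA3 had none.

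The beta and gamma chains pair with these alpha chains. LAMB1, a beta chain, was 2.50-fold lower (log2 -1.32, edgeR FDR 7.30e-05) and LAMC1 2.14-fold lower (log2 -1.10, edgeR FDR 8.55e-06) in the authors' deposited table. LAMC1, the gamma chain shared by most laminins, was still at an estimated 92.7 CPM in the numerator group, against 199 CPM in the denominator group. LAMB2, the beta chain of synaptic and kidney laminins, was not called (log2 0.22, approximate 95% interval -0.23 to 0.67, edgeR FDR 0.396 in the authors' deposited table), and its value turned negative when centred on the spike-in RNAs (-0.35).

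LAMB3, the beta chain of the epidermal laminin that anchors keratinocytes, averaged 2.84 CPM and was not called (log2 -0.93, -2.18 to 0.31, edgeR FDR 0.197 in the authors' deposited table), but was called lower when centred on the spike-ins (-1.50, adjusted p = 0.0351).

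The heparan sulfate proteoglycans moved in opposite directions. Perlecan, encoded by HSPG2, was 6.18-fold higher by the authors' deposited table (log2 2.63, 2.17 to 3.08, edgeR FDR 1.34e-07), at an estimated 66.6 CPM in the numerator group and 10.8 CPM in the denominator group. AGRN, which encodes the agrin that gathers acetylcholine receptors at the neuromuscular junction, was 3.00-fold lower there (log2 -1.59, -1.89 to -1.28, edgeR FDR 4.80e-07), at 57.9 and 174 CPM. The multiplexins, collagens with heparan or chondroitin sulfate chains that sit at basement membranes, were both lower. COL15A1 was 42.9-fold lower (log2 -5.42, -5.94 to -4.90, edgeR FDR 3.44e-10) and COL18A1, the precursor of endostatin, 14.4-fold lower (log2 -3.85, -4.26 to -3.43, edgeR FDR 1.01e-09) in the authors' deposited table.

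Collagen IV is the network-forming collagen found in all basement membranes. Its common trimer is made of COL4A1 and COL4A2 chains, whose genes lie head to head on chromosome 13 and start within a short stretch of each other. The stretch between both starts is shown because these neighbours, which share it as a promoter, had different values. It spans chr13:110307158-110307283 on the plus strand of GRCh38.p14 (start sites from RefSeq), 126 bases with 80.2% G or C. COL4A1 is read leftward from base 110307157 and COL4A2 rightward from base 110307284. Capitals mark, from left to right, the letters CCAAT, then the GC box core GGGCGG, and last TCAAAG. The last is the reverse complement of CTTTGA, the core that TCF/LEF factors bind.
COL4A1-COL4A2: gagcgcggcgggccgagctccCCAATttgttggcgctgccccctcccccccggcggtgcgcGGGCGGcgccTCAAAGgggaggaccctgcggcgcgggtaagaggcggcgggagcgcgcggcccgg

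COL4A2 was 3.10-fold higher by the authors' deposited table (log2 1.63, approximate 95% interval 0.86 to 2.41, edgeR FDR 0.00173). Its estimated level was 17.2 CPM in the numerator group and 5.55 CPM in the denominator group. COL4A1 was not called (log2 -0.02, -0.37 to 0.32, edgeR FDR 0.919 in the authors' deposited table), at an estimated 30.4 CPM in the numerator group and 30.9 CPM in the denominator group. The approximate intervals of the pair do not overlap, but the difference itself was not tested, which would need values per library. Other genes of chromosome 13 within 2-fold had a median log2 fold change of 0.43. Relative to that median COL4A1 was called lower (-0.46, adjusted p = 0.0307), and relative to the spike-ins likewise (-0.59, adjusted p = 0.00518). COL4A5, a chain of kidney and skin basement membranes, was 10.2-fold lower by the authors' deposited table (log2 -3.35, -4.71 to -1.99, edgeR FDR 0.00051) at an average of 2.77 CPM.

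In GRCh38.p14 promoters of RefSeq (250 bases before to 50 after each start), CTTTGA on either strand was present in 15.5% of 27305 genes. It was present in 7 of the 25 genes described here that have an entry, COL4A1 and COL4A2 sharing 1 match. GGGCGG was present in 18 of the 25 and in 48.3% of all genes, CCAAT in 7 of the 25 and in 39.7% of all genes. A match describes letters only.

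The 12 other collagens held 7 lower, 3 higher and 2 genes not called, with a median log2 fold change of -1.52. Over all genes 26.4% were lower and 24.5% higher. COL8A1, a short-chain collagen that forms hexagonal sheets in vessel walls and the cornea, had the smallest p-value of all 35 genes and was 105-fold lower by the authors' deposited table (log2 -6.71, approximate 95% interval -7.34 to -6.08, edgeR FDR 2.96e-10). Its estimated level was 2.44 CPM in the numerator group and 255 CPM in the denominator group. The gene occupies 99638475 to 99799226 of chromosome 3 (hg38, plus strand). COL12A1, a FACIT on the surface of type I fibrils, was 58.7-fold lower (log2 -5.88, -6.74 to -5.01, edgeR FDR 2.53e-08) in the authors' deposited table.

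Collagen VI forms beaded filaments around cells from 3 kinds of chain, and each chain with a row was lower. COL6A1 was 2.92-fold lower (log2 -1.55, -1.85 to -1.24, edgeR FDR 5.47e-07) and COL6A2 2.84-fold lower (log2 -1.50, -1.93 to -1.07, edgeR FDR 2.30e-05) in the authors' deposited table. COL6A1 was at an estimated 108 CPM in the numerator group and 316 CPM in the denominator group, and COL6A2 at 13.5 and 38.2 CPM. COL6A3 was 20.1-fold lower by the authors' deposited table (log2 -4.33, -6.12 to -2.53, edgeR FDR 0.000598), from an average of 2.19 CPM. Its fold rests on an estimated 0.208 CPM in the numerator group, where the smallest estimate among 891 genes at least 4-fold lower with reads in both groups was 0.158 CPM.

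The membrane-spanning collagens were lower as well. COL13A1, found at cell-matrix adhesions and the neuromuscular junction, was 54.3-fold lower (log2 -5.76, -6.84 to -4.68, edgeR FDR 3.20e-07) in the authors' deposited table. COL17A1, the hemidesmosome collagen that ties basal keratinocytes to the basement membrane, was 16.6-fold lower there (log2 -4.05, -5.06 to -3.04, edgeR FDR 6.06e-06). Both folds rest on low estimated levels in the numerator group, 0.534 CPM for COL13A1 and 0.591 CPM for COL17A1.

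Among the FACITs with a row, COL9A3 and COL19A1 were higher. COL9A3, a chain of the cartilage collagen IX, was 32.6-fold higher by the authors' deposited table (log2 5.03, 4.53 to 5.53, edgeR FDR 4.25e-10), at an estimated 46.6 CPM in the numerator group and 1.43 CPM in the denominator group. COL19A1 was higher with no reads in the denominator group, as judged from its degrees of freedom, so no fold is given; its average was 1.31 CPM and its edgeR FDR 0.000276 in the authors' deposited table. COL26A1 was 7.80-fold higher (log2 2.96, 1.90 to 4.03, edgeR FDR 0.000182) at an average of 2.49 CPM in the authors' deposited table. COL7A1, which builds the anchoring fibrils beneath the epidermis, missed the threshold (log2 0.50, unadjusted p = 0.047, edgeR FDR 0.0841 in the authors' deposited table), as did the FACIT COL16A1 (log2 0.43, FDR 0.338). Centred on the spike-ins both values were just below 0, at -0.07 and -0.14.

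**Figure D4:**
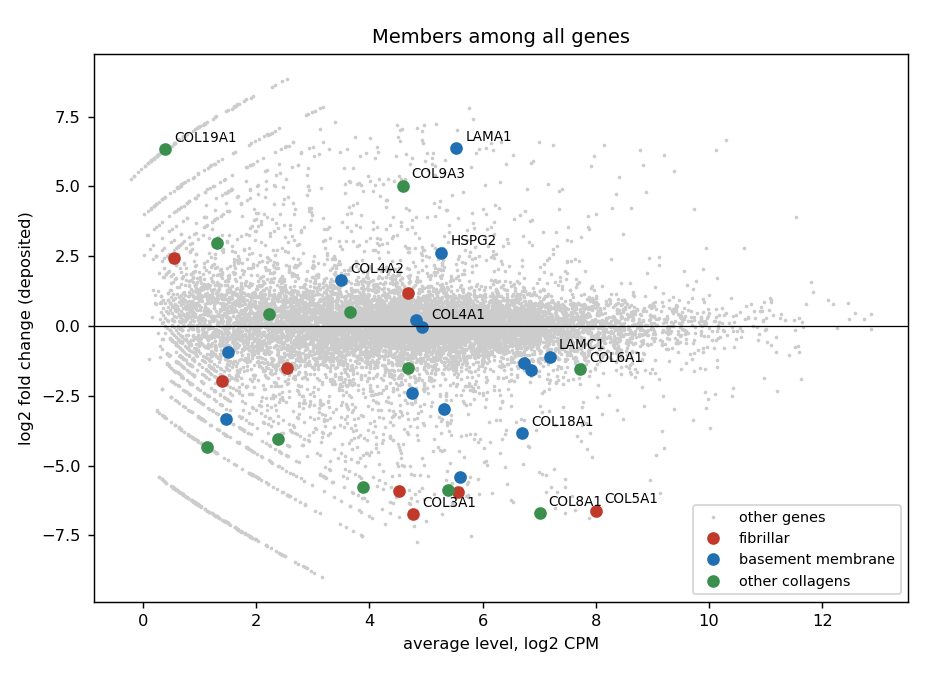
Deposited log2 fold change against average log2 CPM for the genes tested (grey) and 34 of the 35 genes by class. COL8A1 and COL5A1 combine a high average level with log2 values of -6.71 and -6.61, LAMA1 stands at 6.36, and COL19A1 lies on the upper edge line formed by genes with no reads in 1 group.

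Lower genes outnumbered higher ones in each of the 3 classes. They made up 75.0% of the fibrillar collagens, 60.0% of the basement membrane genes and 58.3% of the other collagens. Higher genes made up 25.0%, 20.0% and 25.0%, near the 24.5% of all genes. Of all genes, 26.4% were lower. The median of the fibrillar collagens lay furthest from 0. At least 16-fold lower were 4 of these 8, against 2 of 15 basement membrane genes and 5 of 12 other collagens. Of all genes, 3.63% were at least 16-fold lower. The classes overlap widely: fibrillar collagens ran from -6.74 to 2.43, COL15A1 and LAMA1 of the basement membrane genes stood at -5.42 and 6.36, and COL8A1 and COL9A3 of the other collagens at -6.71 and 5.03. No test between classes was made, because the genes of a class are not replicates of it.

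The split between lower and higher genes was read under other rules for calling, each beside its background over all genes. With 4 degrees of freedom 21 of the 35 genes were lower and 7 higher, where 17.3% and 15.7% of all genes were (33% in all). Centred on the spike-ins 24 were lower and 8 higher, against 52.3% and 11.3% of all genes (63.6% in all), and centred on the chromosome 23 and 8, against 24.7% and 23% (47.7% in all). An FDR of 0.01 left 22 lower and 8 higher, against 20% and 18.1% (38.1% in all), and so did a fold of at least 2, against 15.6% and 13.3% (28.9% in all). With p-values adjusted again over genes with an average log2 CPM of at least 1, 22 were lower and 6 higher, against 27% and 24.3% (51.3% in all). Without genes that had no reads in 1 group 22 were lower and 7 higher, against 25.8% and 24.3% (50.1% in all). Bonferroni adjustment left 17 lower and 3 higher, against 7.15% and 5.95% (13.1% in all). Lower calls outnumbered higher ones among the 35 genes under each of these 8 rules, and among all genes too. Centred on the spike-ins, higher genes made up 25% of the called genes among the 35, a larger share than the 17.8% among all genes.

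The 35 genes lie on 14 chromosomes, and the pairs of neighbours described here are 3. COL3A1 and COL5A2 converge on chromosome 2 with 19.2 kb between them and had log2 fold changes of -6.74 and -1.98 in the authors' deposited table. COL6A1 and COL6A2 lie 93.1 kb apart on chromosome 21 and stood at -1.55 and -1.50 in the authors' deposited table. The third pair is COL4A1 and COL4A2. Neighbours thus had overlapping intervals in 1 of these 3 pairs, COL6A1 and COL6A2. Over the members' chromosomes, the median log2 fold change of genes within 2-fold ran between -0.43 (chromosome 10) and 0.43 (chromosome 13). The limit to genes within 2-fold keeps such a median under 1 in size, so it does not measure larger shifts of a chromosome.

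The cell surface receptors that bind collagens and laminins were also mostly lower. Of 15 with a row, from a list of 19, 12 were lower, 2 higher and 1 not called (26.4% and 24.5% of all genes were lower and higher), with a median log2 fold change of -2.06. The integrin subunit ITGA3, a laminin receptor of epithelia, was 41.5-fold lower by the authors' deposited table (log2 -5.38, edgeR FDR 2.10e-10). The syndecans SDC1 and SDC4, heparan sulfate carriers at the cell surface, were 17.8-fold and 11.7-fold lower there (edgeR FDR 2.82e-10 and 3.29e-10). ITGA7, the laminin-binding subunit known from muscle, was 35.8-fold higher by the authors' deposited table (log2 5.16, edgeR FDR 2.22e-10).

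Genes of collagen folding and propeptide processing were called in both directions, in shares near those of all genes (26.4% lower and 24.5% higher), with 5 higher, 6 lower and 7 not called of 18 with a row, from a list of 20. Their median log2 fold change was -0.04. SERPINH1, the collagen chaperone of the endoplasmic reticulum, was 7.25-fold lower by the authors' deposited table (log2 -2.86, edgeR FDR 1.23e-09). P3H2, a prolyl hydroxylase that acts on collagen IV, was 25.8-fold lower and CREB3L1, a transcription factor that drives type I collagen genes in bone, 127-fold lower there (edgeR FDR 4.64e-10 and 8.89e-10). They averaged 51.2 and 32.0 CPM. ADAMTS2, which trims the N-propeptides of fibrillar collagens, was 96.0-fold higher by the authors' deposited table (log2 6.58, edgeR FDR 1.26e-07) at an average of 6.29 CPM.

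Of 20 other basement membrane proteins, 9 had a row: 6 were lower, 1 higher and 2 not called (against 26.4% lower and 24.5% higher of all genes), with a median log2 fold change of -2.81, or -2.33 without the 2 genes that had no reads in 1 group. PXDN, the peroxidase that crosslinks collagen IV, was 20.3-fold lower by the authors' deposited table (log2 -4.35, edgeR FDR 1.23e-09). SPARC, a collagen-binding glycoprotein, was 5.03-fold lower (log2 -2.33, edgeR FDR 4.18e-09) and NTN4, a laminin-related protein, 68.2-fold lower (log2 -6.09, edgeR FDR 4.57e-06) in the authors' deposited table. NTN4 averaged only 6.06 CPM. VWA1, a partner of perlecan, was lower with no reads in the numerator group (average 2.84 CPM, edgeR FDR 0.000166 in the authors' deposited table).

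**Figure D5:**
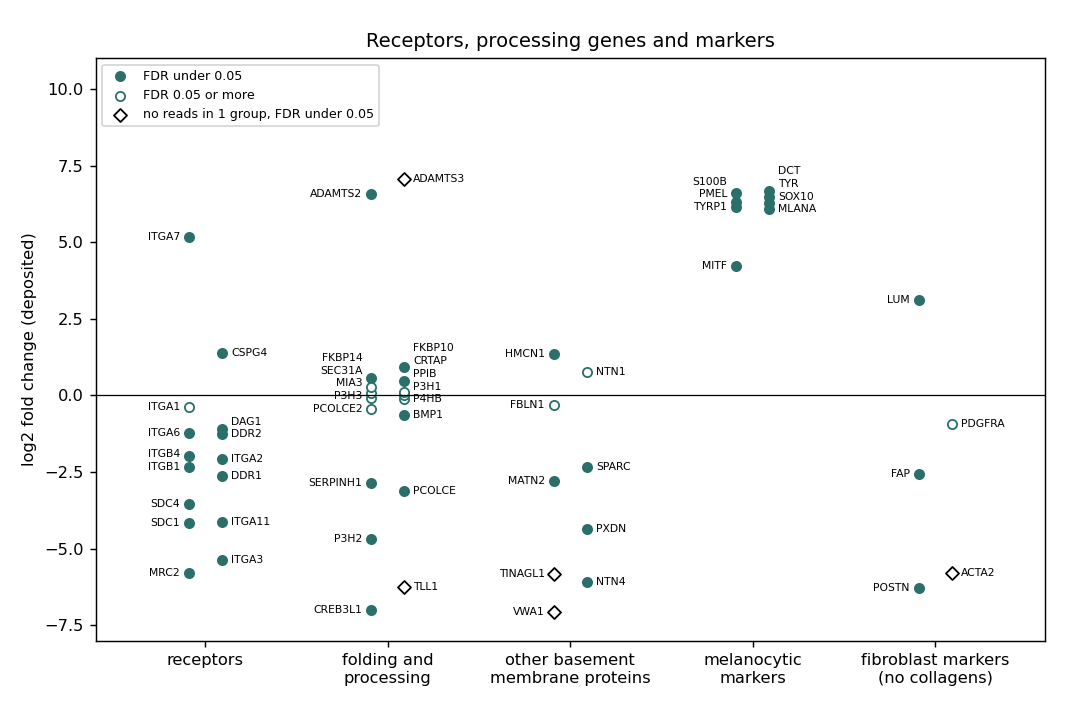
Deposited log2 fold change (y axis) of each gene with a row in 5 lists: receptors of collagen and laminin, collagen folding and processing, other basement membrane proteins, melanocytic markers and fibroblast markers other than collagens. Of the receptors 12 of 15 are called lower, and all 8 melanocytic markers are called higher.

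Cell type markers were called in both directions (26.4% of all genes were lower and 24.5% higher). All 8 melanocytic markers were higher (median log2 fold change 6.30), and their estimated levels summed to 7665 CPM in the numerator group and 116 CPM in the denominator group. Of 8 fibroblast markers other than collagens 5 had a row, 3 lower, 1 higher and 1 not called (median -2.55, or -1.75 without the gene with no reads in 1 group), and their estimated levels summed to 15.0 CPM in the numerator group and 225 CPM in the denominator group. Within that list POSTN was 78.6-fold and FAP 5.87-fold lower, LUM was 8.59-fold higher, and ACTA2 was lower with no reads in the numerator group, in the authors' deposited table (edgeR FDR 0.00355 or less). POSTN averaged 93.4 CPM, FAP 20.1, LUM 3.16 and ACTA2 1.45 CPM, so POSTN weighs most in the sum of the denominator group. PDGFRB, DCN and THY1 had no row. Of 6 endothelial markers 2 had a row, both lower, summing to 1.49 CPM in the numerator group and 10.1 CPM in the denominator group. Of 8 epithelial markers 4 had a row, 3 lower and 1 higher, summing to 14.7 and 357 CPM. KRT18 was 103-fold lower at an average of 175 CPM, so it weighs most in the denominator sum. CDH1 was 24.7-fold higher at an average of 5.87 CPM. KRT8 and TP63, at averages of 1.92 and 3.18 CPM, were lower with no reads in the numerator group. These 4 had an edgeR FDR of 0.000721 or less in the authors' deposited table. All 6 Schwann cell markers, among them S100B, which is also in the melanocytic list, were higher, summing to 637 and 64.8 CPM, and of 4 blood markers CD68 alone had a row and was higher. All libraries came from the IGR37 line, so the list names do not mean that such cell types were present. A link between these markers and the collagen and laminin values was not tested. In bulk RNA of the line, fewer cells expressing a gene and less of its RNA per cell cannot be told apart.

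Reads were taken from the 3′ ends of transcripts. In the last 1000 bases of 7 of the 35 genes another annotated gene overlaps, on the opposite strand for COL9A3, COL18A1, LAMA5, HSPG2, LAMB1 and COL16A1 and on the same strand for AGRN. Whether the authors' counting used strand is not given in the sources used here. The overlapping genes with a row had log2 fold changes of 1.31 (TCFL5, over COL9A3), 0.65 (SLC19A1, over COL18A1), -0.68 (ADRM1, over LAMA5) and 0.54 (DLD, over LAMB1) in the authors' deposited table. The genes over HSPG2, AGRN and COL16A1 had no row. Whether reads of an overlapping gene entered a count was not tested.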

How the data were processed

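Each library took 500 ng of RNA into a 3′-end kit (QuantSeq Forward), per the labels' protocols. The submitters' processing notes name STAR, edgeR and hg38, without versions; how reads were counted and filtered is not given in the sources used here. The authors deposited, for each of 12617 rows (59 of them ERCC spike-in RNAs), the log2 fold change with its linear ratio, the average log2 CPM, the F statistic (a score), and a p-value with its FDR, per the file headers. Without depth per library, no counting interval can be given. The lowest average log2 CPM in the table was -0.22.

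The authors' edgeR F test was used as deposited, and calls are at an FDR under 0.05. From each row's F and p the denominator degrees of freedom were solved: 14.03 in most gene rows and 2 fewer in 206, read here as genes with no reads in 1 group. Approximate standard errors are the log2 fold change divided by the square root of F (0.13 to 0.84 over the 34 of the 35 genes with reads in both groups), and 95% intervals use those degrees of freedom. Estimated group levels assume that the average CPM is the mean of both groups. GENCODE 44 (hg38) gave the positions of all 35 genes, by symbol, and RefSeq (GRCh38.p14) the promoters. Python 3.11.15, numpy 2.4.6, pandas 2.3.3 and scipy 1.17.1 were used, and the calculations were tested on simulated data.

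Every collagen, laminin or proteoglycan gene with a row is named with its call, except 1 that is not reported here and enters only the counts, medians and sums, and from each other list at most the 4 genes with the smallest p-values. Genes that overlap a 3′ end were named in addition after their values were seen. The genes, lists and classes were chosen with earlier results of these data known. Since p-values measure the spread between these libraries, they may measure technical spread only.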

Additional observations from a re-analysis of the deposited data

How the results depend on the processing

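Alternatives were 4 denominator degrees of freedom, centring on the spike-ins or on the chromosome, an FDR of 0.01, at least 2-fold, an average log2 CPM of at least 1, leaving out genes with no reads in 1 group, and Bonferroni adjustment. Under these, lower calls among the 35 genes ran from 17 to 24 and higher calls from 3 to 8. With Bonferroni adjustment 3 genes were higher, and 4 of 8 fibrillar collagens were called. Over all genes that adjustment called 1645 (13.1%) and 4 degrees of freedom 4142, against 6398 as deposited. The spike-ins had a median log2 fold change of 0.57. Centred on it, 8 of the 35 genes were higher and 24 lower, the share of higher among all called genes was 17.8% against 48.1%, and the medians were -4.52 for fibrillar, -1.89 for basement membrane and -2.09 for other collagen genes. The same centring turned COL7A1 (-0.075), COL16A1 (-0.14) and LAMB2 (-0.35) negative, none of them called. With an average log2 CPM of at least 1 the fibrillar median was -5.91, since COL11A2 drops out. In all, 20 of the 35 genes kept their direction and call under every alternative that retained them. No paired analysis was possible because the table holds no value per library, and for the same reason no replicate could be left out. Depth limits COL6A3, whose level in the numerator group was near the smallest estimated there, and COL19A1, which had no reads in 1 group.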

Other observations

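The letters CTTTGA, the core bound by TCF/LEF factors that partner with beta-catenin, occurred in the RefSeq promoters of 15.5% of all 27305 genes. They were present in 3 of 6 higher genes (COL11A2, COL26A1 and COL4A2) and 1 of 14 lower genes (COL13A1). Of the genes not called, COL4A1, LAMB2 and LAMB3 held them too, COL4A1 sharing its match with COL4A2. TATAAA occurred in 0 of 6 higher and 4 of 14 lower genes, against 14% of all genes. A link between these letters and the calls was not tested. Both strands were searched, genes with several starts had more sequence to search, and 10 of the 35 genes had no entry. Sites of the higher genes are shown with 10 bases on each side, in the direction of the gene, with the match in capitals (GRCh38.p14).
COL26A1, chr7:101362804-101362829, plus strand: cccacgccccCTTTGAcggcttagag
COL26A1, chr7:101362643-101362668, plus strand: aggtttggttTCAAAGgttctaaggt
COL11A2, chr6:33193347-33193372, minus strand: cggtggattcTCAAAGgcgccttgtt
COL4A2, chr13:110307219-110307244, plus strand: gggcggcgccTCAAAGgggaggaccc
COL11A2 held 2 further matches at other starts. No member's promoter with an entry held CACGTG or CATGTG, the E-box letters that MITF binds, which were present in 8.77% and 13.4% of all genes. This says only that these letters are not in these windows.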
